A study of Mus musculus with 2 samples.

Results

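The 4 early growth response genes (Egr1 to Egr4) and the 3 genes of the Nr4a nuclear receptor subfamily (Nr4a1 to Nr4a3) were followed in RNA sequencing libraries of the mouse suprachiasmatic nucleus (SCN), a small hypothalamic region that acts as the master circadian clock. The genes were taken by their symbols from a deposited table of 24229 genes, and all 7 were found once. One library came from mice entrained to a short light-dark cycle (ST) and one from mice entrained to a normal cycle (NT), in a series on how light reshapes circadian behaviour and on DNA methylation. All mice of both groups were wild-type C57BL/6 at postnatal day 68, with no transgene or drug named. They had spent 7 days in constant darkness before entrainment in groups of 8, had run on wheels in darkness after 4 weeks of entrainment, and were killed at circadian time 4 h once 5 days of darkness had passed, so neither tissue was taken in light. SCN tissue was dissected from slices of 250 µm, and the molecule sequenced is labelled as polyadenylated RNA. The sources used here do not state the periods of both cycles, whether nuclear or cytoplasmic RNA was kept, or how many animals went into a library. With 1 library per group no biological spread can be estimated; differences below are between these libraries, not the conditions, and carry no p-value of their own.

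Both families are immediate early genes, transcribed within minutes of a stimulus from factors already present in the cell. The Egr proteins are zinc-finger transcription factors that bind GC-rich sites, and their activity is held back by the Nab corepressors. The Nr4a proteins are orphan nuclear receptors whose activity is set mainly by how much of them is made, and they bind DNA alone or as pairs with each other or, for Nr4a1 and Nr4a2, with retinoid X receptors. In neurons, calcium, cAMP and ERK signals reach these promoters through CREB, which binds the cAMP response element (CRE), and through serum response factor, which binds the CArG box. In the SCN, Egr1 is known as a gene induced by light at night.

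Promoter sequences are shown first because they hold the elements through which these families are known to be induced. RefSeq windows running from 250 bases before to 50 bases after each start site, on GRCm38.p6, were matched for 5 of the 7 genes: Egr2, Egr4, Nr4a1, Nr4a2 and Nr4a3. Egr1 and Egr3 had no window. Each window is given 5′ to 3′ on the strand of its gene, with every CRE core (TGACG, or CGTCA where it lies on the other strand) in capitals. For Egr2, which has 5 windows, the first one that held both a CArG box and CRE cores is printed.
Egr2, chr10:67537619-67537918, plus strand: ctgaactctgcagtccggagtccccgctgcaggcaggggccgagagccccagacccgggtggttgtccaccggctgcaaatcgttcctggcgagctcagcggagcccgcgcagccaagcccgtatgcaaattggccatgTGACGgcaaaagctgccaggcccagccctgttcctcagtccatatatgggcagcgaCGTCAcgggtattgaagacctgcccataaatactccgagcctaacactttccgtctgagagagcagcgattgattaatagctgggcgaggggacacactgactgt
Egr4, chr6:85513540-85513839, minus strand: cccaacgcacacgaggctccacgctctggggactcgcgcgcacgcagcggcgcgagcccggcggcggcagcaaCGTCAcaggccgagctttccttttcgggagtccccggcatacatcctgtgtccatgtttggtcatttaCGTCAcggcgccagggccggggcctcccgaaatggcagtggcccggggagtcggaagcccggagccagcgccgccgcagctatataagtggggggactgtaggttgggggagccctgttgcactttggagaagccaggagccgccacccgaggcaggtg
Nr4a1, chr15:101266596-101266895, plus strand: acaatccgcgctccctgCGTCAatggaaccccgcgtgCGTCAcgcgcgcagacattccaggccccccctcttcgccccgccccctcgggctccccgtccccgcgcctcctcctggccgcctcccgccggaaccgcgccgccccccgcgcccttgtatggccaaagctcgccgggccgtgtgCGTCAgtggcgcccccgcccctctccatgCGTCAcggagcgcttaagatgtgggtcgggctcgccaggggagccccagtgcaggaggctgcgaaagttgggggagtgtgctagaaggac
Nr4a2, chr2:57123954-57124253, minus strand: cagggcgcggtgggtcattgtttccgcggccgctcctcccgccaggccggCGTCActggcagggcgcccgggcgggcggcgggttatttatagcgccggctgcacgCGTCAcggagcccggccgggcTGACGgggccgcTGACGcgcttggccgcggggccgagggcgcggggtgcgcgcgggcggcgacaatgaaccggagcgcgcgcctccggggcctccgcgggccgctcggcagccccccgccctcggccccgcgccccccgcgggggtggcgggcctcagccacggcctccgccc
Nr4a3, chr4:48045055-48045354, plus strand: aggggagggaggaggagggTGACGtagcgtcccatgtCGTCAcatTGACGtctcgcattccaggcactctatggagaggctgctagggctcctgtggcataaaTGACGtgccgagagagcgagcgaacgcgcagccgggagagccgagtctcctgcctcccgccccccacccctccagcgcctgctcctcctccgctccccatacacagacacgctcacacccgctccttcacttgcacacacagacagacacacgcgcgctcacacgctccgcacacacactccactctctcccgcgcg

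CRE cores were found in the single windows of Egr4, Nr4a1, Nr4a2 and Nr4a3. The Nr4a genes held 4 each and Egr4 held 2. The 2 cores of the Egr2 window were a condition of its choice, and 2 of the 5 Egr2 windows held none. Of 32851 windows in the whole table, 20.8% held at least 1 core, 5.01% at least 2 and 0.231% at least 4, counting both strands. The core contains a CpG, and GC content was 60% in the printed Egr2 window, 67.7% in that of Egr4, 72.3% for Nr4a1, 81.7% for Nr4a2 and 64.7% for Nr4a3, against a median of 52.7% over all windows; the part of base composition in these counts was not tested. The full element TGACGTCA, in which 2 cores overlap, was in none of the 5 and in 1.79% of all windows. In the printed Egr2 window a CArG box lay 72 bases before the start site, between cores at 111 and 55 bases before it. Over the 5 Egr2 windows, 4 held a CArG box and 3 held cores, and the windows overlap in part, so these are not independent counts. A CArG box was present in 1.63% of all windows. The Egr site GCGNGGGCG matched once in Nr4a1, beginning 60 bases before the start, and once in Nr4a2, at 74 bases, against 5.55% of all windows. The Nr4a site AAAGGTCA matched in none of the 5, against 1.51% of all windows. TATAAA matched once, on the other strand of Nr4a2, against 13.6% of all windows. A match is a run of letters in this window, not a site shown to be bound.

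**Figure D1:**
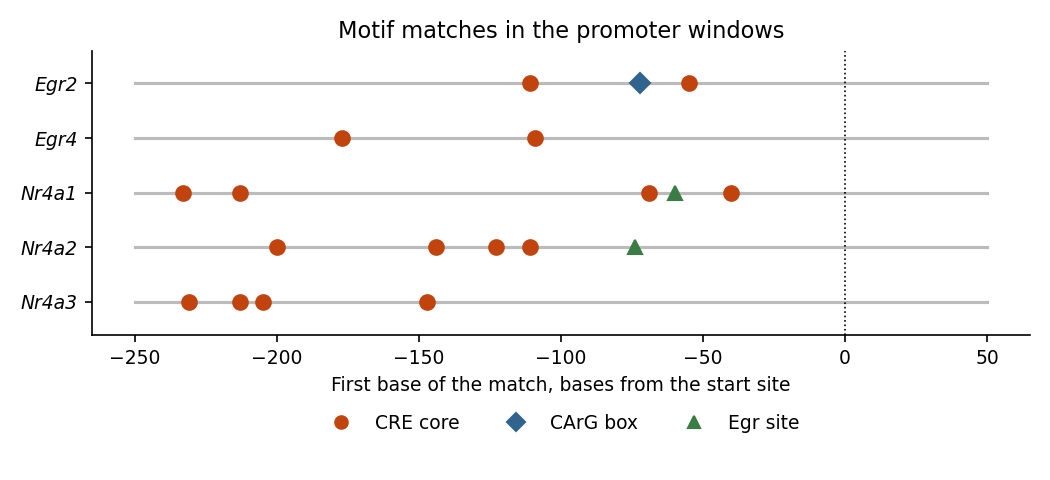
Position of motif matches in the promoter windows of 5 genes, as the distance in bases from the start site (dotted line) to the first base of each match on the gene's strand. Circles are CRE cores, the diamond is a CArG box and triangles are Egr sites; the 3 Nr4a genes have 4 cores each and Egr2 and Egr4 have 2 each.

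The ST library held 19476800 estimated counts and the NT library 24790727. Normalised counts are counts divided by a library's size factor (0.89 in ST, 1.12 in NT, from the median of ratios), and the 14343 genes that averaged 50 or more of them are called measured. Markers of the SCN were present in both libraries: all 12 genes of the list were measured, among them the ventral peptide gene Vip (4988 counts in ST, 7419 in NT) and the developmental factor Six6 (1524 and 2048 counts). None of the 7 Egr and Nr4a genes had a fractional count, the sign of reads divided between listed features. That check does not reach Gm17507, a gene that overlaps Egr1 and has no counts in the listing.

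Egr1 was the most abundant of the 7 genes, and the order was close to the same in both libraries. Egr1, the best known neuronal activity marker of the family, had 39.3 RPKM in the ST library and 28.2 RPKM in the NT library (reads per kilobase of gene model, scaled to library size). That placed it above 92.6% of the listed genes in ST and above 89.2% in NT. Nr4a1, also called Nur77, had 20.6 RPKM in ST and 15.8 RPKM in NT. Nr4a3, also called Nor1, had 6.64 RPKM in ST and 5.61 RPKM in NT. The drop from Egr1 to Nr4a1 and from Nr4a1 to Nr4a3 exceeded the counting intervals in both libraries.

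The other 4 genes were low. Egr4 had 2.21 RPKM in ST and 1.38 RPKM in NT. Nr4a2, also called Nurr1 and best known as a factor of midbrain dopamine neurons, had 1.85 RPKM in ST and 1.39 RPKM in NT. Egr3, which is known to act in muscle spindles and in neurons, had 1.27 RPKM in ST and 1.03 RPKM in NT. Egr2, known as Krox20 for its role in the hindbrain and in myelinating Schwann cells, was lowest, with 0.469 RPKM in ST and 0.452 RPKM in NT. Neighbours in this order did not all separate: the 95% Poisson intervals of Egr4 and Nr4a2 overlapped in both libraries, as did those of Nr4a2 and Egr3 in ST and of Egr4 and Egr3 in NT. Egr4 stood above Nr4a2 in ST and just below it in NT, within those intervals. Egr3 was clear of Egr2 in both. Egr1 made up 90.9% of the summed Egr RPKM in ST and 90.8% in NT, and Nr4a1 70.8% and 69.3% of the summed Nr4a RPKM.

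**Figure D2:**
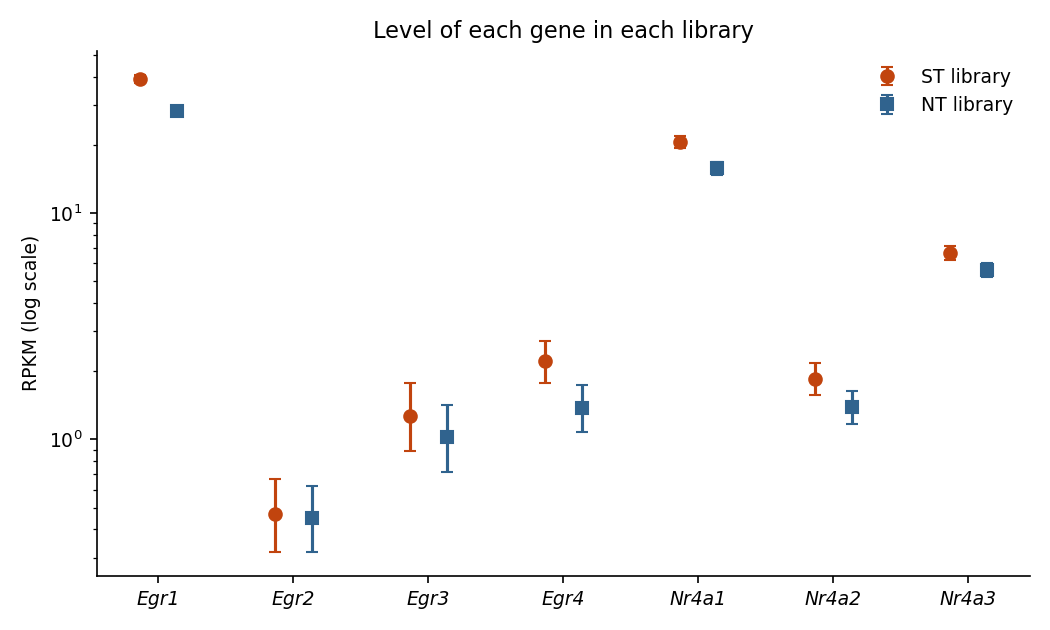
RPKM (log scale) of the 7 genes in the ST library (circles) and the NT library (squares), 1 library each, with 95% Poisson intervals of the count. Levels run from Egr1 at 39.3 RPKM in ST and 28.2 in NT down to Egr2 at 0.469 and 0.452.

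All 5 measured genes were higher in the ST library than in the NT library, each with a 95% counting interval of the fold above 1. The largest ratio was that of Egr4 and the most precise that of Egr1. The same held for 7.79% of all 14343 measured genes, while 10.2% had the whole interval below 1. The median log2 ratio was 0.40 over the 5 genes, from 0.23 to 0.67, and 0.00 over all measured genes. Intervals are exact Clopper-Pearson intervals of the ST share of both counts and hold counting error alone: without molecular identifiers, reads are not independent molecules.

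Among the Egr genes, Egr1 had 2371 counts in ST and 2162 in NT, which at the depths of the libraries are 2664 and 1924 normalised counts. It was 1.38-fold higher in ST (interval 1.31 to 1.47), and of all measured genes 88 had a higher ratio and 16 a higher lower bound. Egr4, whose product acts as an activity-induced factor in neurons, had 92 counts in ST and 73 in NT. Its fold was 1.59 (1.16 to 2.19), so the interval spans from a small difference to more than a doubling. It was the single gene of the 7 at least 1.5-fold higher in ST, a size that 0.314% of measured genes reached, and its normalised counts of 103 in ST and 65.0 in NT both lay above the filter. Egr2 and Egr3 were below the filter: Egr2 had 31 counts in ST and 38 in NT, Egr3 had 35 and 36. Their folds of 1.03 (0.619 to 1.70) and 1.23 (0.748 to 2.01) span lower levels as well as ratios above that of Egr1, and a difference of that size was not detectable at this depth.

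Among the Nr4a genes, Nr4a1 had 988 counts in ST and 961 in NT, or 1110 and 855 normalised counts, and was 1.30-fold higher in ST (1.19 to 1.42). Nr4a2 had 147 counts in ST and 140 in NT and was 1.33-fold higher (1.04 to 1.68). Nr4a3 had 773 counts in ST and 831 in NT, or 868 and 740 normalised counts, and was 1.17-fold higher (1.06 to 1.30). The 3 receptors thus had similar ratios, with the lower bound of Nr4a2 close to 1. A difference of 1.2-fold or more was seen for 4 of the 5 measured genes, against 3.37% of measured genes, and Nr4a3 fell short of that size. None of the 7 reached 2-fold, which 0.0209% of measured genes did in that direction.

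**Figure D3:**
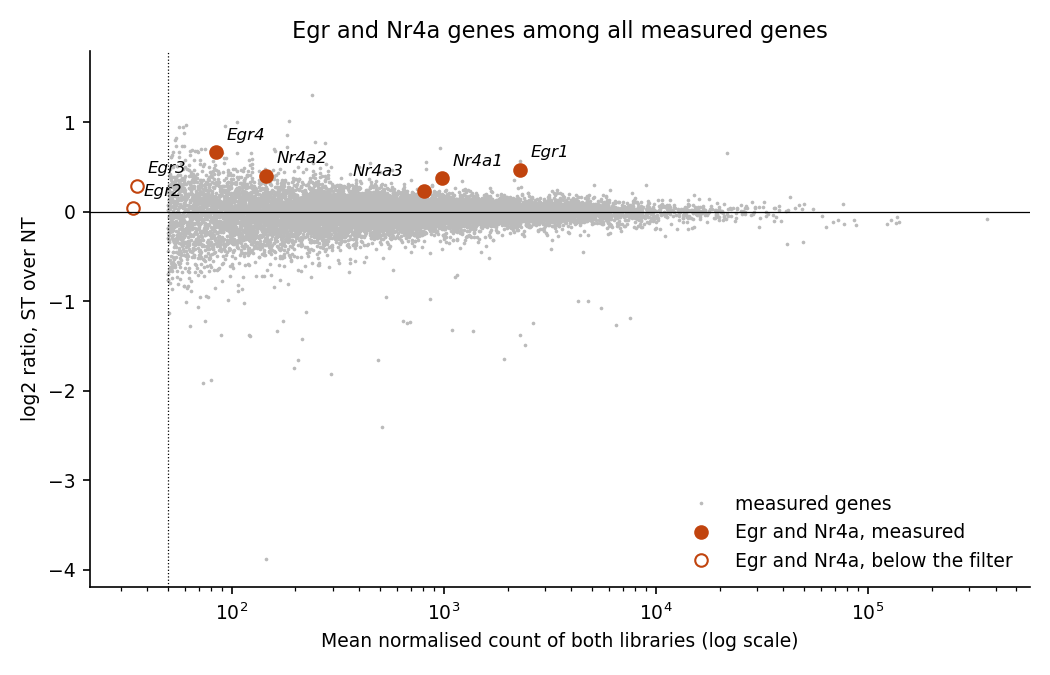
Log2 ratio of ST over NT against the mean normalised count (log scale) for all measured genes (grey) and for the 7 Egr and Nr4a genes (filled where measured, open below the filter of 50, dotted line). The 5 measured genes lie between 0.23 and 0.67, in the upper part of the cloud. Of all measured genes, 30 had a higher ratio than Egr4 and 641 a higher ratio than Nr4a3.

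The ratios of the 7 genes could hardly be told from one another. Each pair was set against the other by the conditional exact interval of the odds ratio of its counts, in which library scaling cancels. Of 21 pairs, 1 had an interval clear of 1: the ratio of Egr1 was 1.18 times that of Nr4a3 (1.05 to 1.32). The intervals were not adjusted for the number of pairs. Egr1 against Nr4a1 gave 1.07 (0.958 to 1.19), Nr4a1 against Nr4a3 1.10 (0.966 to 1.26) and Egr4 against Nr4a3 1.36 (0.969 to 1.90). Pairs with Egr2 or Egr3 were wide, such as Egr2 against Egr4 at 0.648 (0.353 to 1.18), and bear little on whether the members differ.

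In the authors' deposited table the log2 fold change of ST over NT was 0.47 for Egr1, 0.67 for Egr4, 0.38 for Nr4a1, 0.41 for Nr4a2 and 0.23 for Nr4a3. The adjusted p of the authors' deposited table was 0.142 for Egr1 and 1 for the other 6 genes, so none was called at 0.05, against 0.0413% of listed genes called as higher in ST. The unadjusted p in the authors' deposited table was 0.000379 for Egr1, 0.00922 for Nr4a1, 0.0277 for Egr4, 0.1003 for Nr4a2, 0.121 for Nr4a3, 0.486 for Egr3 and 0.920 for Egr2. These values rest on 1 library per group.

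Positions below are those of the deposited table, in mm9, and each gene is annotated as protein-coding in GENCODE vM1 on the same assembly. Egr1 (ENSMUSG00000038418) lies on chromosome 18 from 35020861 to 35024638, with 2 merged exonic blocks. Its last 200 bases overlap Gm17507, a gene on the other strand, and since strand-specific counting is not stated, reads in that stretch cannot be assigned to one strand. No other annotated gene overlapped the other 6. Egr2 (ENSMUSG00000037868) lies on chromosome 10 from 66998223 to 67004936, Egr3 (ENSMUSG00000033730) on chromosome 14 from 70477252 to 70479964, and Egr4 (ENSMUSG00000071341) on the minus strand of chromosome 6 from 85461125 to 85463583. Nr4a1 (ENSMUSG00000023034) lies on chromosome 15 from 101097284 to 101105223, Nr4a2 (ENSMUSG00000026826) on the minus strand of chromosome 2 from 56959241 to 56976552, and Nr4a3 (ENSMUSG00000028341) on chromosome 4 from 48058025 to 48099319. The 7 genes lie on 7 different chromosomes.

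Factors that act on these promoters lay on both sides of equality. Of 17 measured factors of the serum response factor, CREB and MEF2 groups, 4 had an interval above 1 and 1 below 1, with a median log2 ratio of 0.04. The count above 1 was 2 of 17 with pan-neuronal scaling and 2 of 8 among genes sharing no reads, since Mkl2 and Ep300, both among the 4, share reads. Crebbp, the CREB-binding acetyltransferase, was at 0.26 (fold interval 1.10 to 1.29), and the lowest was Elk3, a ternary complex factor that can repress, at -0.39 (0.628 to 0.924). Crem, the cAMP-responsive modulator, was at 0.21 (0.997 to 1.34) and Mef2c at -0.27 (0.646 to 1.06), with intervals that held 1. Srf itself had 505 counts in ST and 564 in NT and a log2 ratio of 0.18 (1.0002 to 1.28).

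The kinases upstream and the phosphatases that switch ERK off had medians close to 0. Of 15 measured kinases, 0 had an interval above 1 and 5 below 1, with a median of -0.01. With total-count scaling, 2 were above 1 and 4 below. The calcium-dependent CREB kinase Camk4 was lowest at -0.43 (0.552 to 0.986), with reads shared between features, while Rps6ka1 at 0.14 and Braf at -0.13 had intervals that held 1. Of 5 measured dual-specificity phosphatases, themselves often induced with the immediate early genes, 0 had an interval above 1 and 1 below, and the median was 0.01. The count below 1 was 0 with total-count scaling. Dusp1 was at 0.12 (0.991 to 1.199), Dusp4 at -0.18 (0.782 to 0.994) and Dusp5 at -0.44 (0.499 to 1.08). These are levels of messenger RNA and say nothing of phosphorylation.

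Partners of the Egr and Nr4a proteins, and other factors that bind similar GC-rich sites, lay on both sides of equality. Nab2, a corepressor that is itself known as an Egr-induced gene, had 153 counts in ST and 185 in NT and a log2 ratio of 0.06 (0.837 to 1.30). Nab1 was at -0.14 (0.812 to 1.01), and both share reads with other features. Sp1, a zinc-finger factor that binds overlapping GC-rich sites, was at -0.18 (0.805 to 0.964), and Sp4, its relative in neurons, at 0.10 (0.980 to 1.17). The retinoid X receptors Rxra, Rxrb and Rxrg lay at -0.02, -0.02 and 0.05, each with an interval that held 1. Wt1, which can bind Egr sites, had 0 counts in ST and 1 in NT.

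Genes reported elsewhere as targets of these factors went both ways. Of 11 measured, 1 had an interval above 1 and 5 below 1, with a median of -0.01. Among the 7 that share no reads the median was -0.24, with 1 interval above 1 and 4 below. Arc, a synaptic gene reported as an Egr target, was at 0.21 (1.02 to 1.32), while Cdk5r1, the p35 activator of Cdk5, was at 0.05 (0.988 to 1.09). The dopaminergic genes linked to Nr4a2 in the midbrain were lower in ST or equal: the dopamine transporter Slc6a3 at -0.63 (71 counts in ST and 139 in NT), Th at -0.27, the vesicular transporter Slc18a2 at -0.24, the receptor Ret at -0.21 and Ddc at 0.03. Pomc, linked to Nr4a1 in pituitary cells, was at -2.41. The list holds genes of cells outside the SCN, so its ratios also carry how much neighbouring tissue each sample held; that part was not tested.

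Other immediate early genes, most of them transcription factors, were higher in ST in part. Of 22 measured, 14 were higher, against 49.1% of all measured genes, and the median log2 ratio was 0.16. An interval above 1 was found for 8, against 7.79% of all measured genes, and below 1 for 0, against 10.2%. Jun, among the 8, shares reads, and 7 of 20 were above 1 among genes sharing no reads. Fos, the AP-1 subunit used most as an activity marker, was at 0.63 with 1953 counts in ST and 1592 in NT, Fosb at 0.55, Junb at 0.54, Fosl2 at 0.36 and the bZIP repressor Nfil3 at 0.36. On the other side were Klf4 at -0.36 (0.599 to 1.01), Klf10 at -0.31 (0.614 to 1.05), Zfp36 at -0.22 (0.621 to 1.18) and Ier2 at -0.19 (0.648 to 1.18), all with intervals that held 1. Npas4, a factor induced by calcium selectively in neurons, was at 0.12 (0.947 to 1.25).

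Egr1, Nr4a1 and Nr4a3 were also set against Fos, Junb and Per1, and their ratios lay below that of Fos. Egr4, whose fold of 1.59 compares with 1.55 for Fos, and the other members were not paired in this way. Of the 9 pairs, 6 had an interval clear of 1. The ratio of Egr1 was 0.894 times that of Fos (0.818 to 0.977), that of Nr4a1 0.838 times (0.749 to 0.938) and that of Nr4a3 0.758 times (0.672 to 0.855). Against the light-responsive clock gene Per1, the ratio of Egr1 was 1.195 times as high (1.11 to 1.29) and that of Nr4a1 1.12 times (1.01 to 1.24), whereas Nr4a3 gave 1.01 (0.908 to 1.13). Against Junb, Egr1 at 0.952 (0.822 to 1.10) and Nr4a1 at 0.892 (0.758 to 1.05) could not be told apart from it. Nr4a3 lay below Junb at 0.807 (0.6825 to 0.954). The intervals of the 9 pairs were not adjusted for their number.

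**Figure D4:**
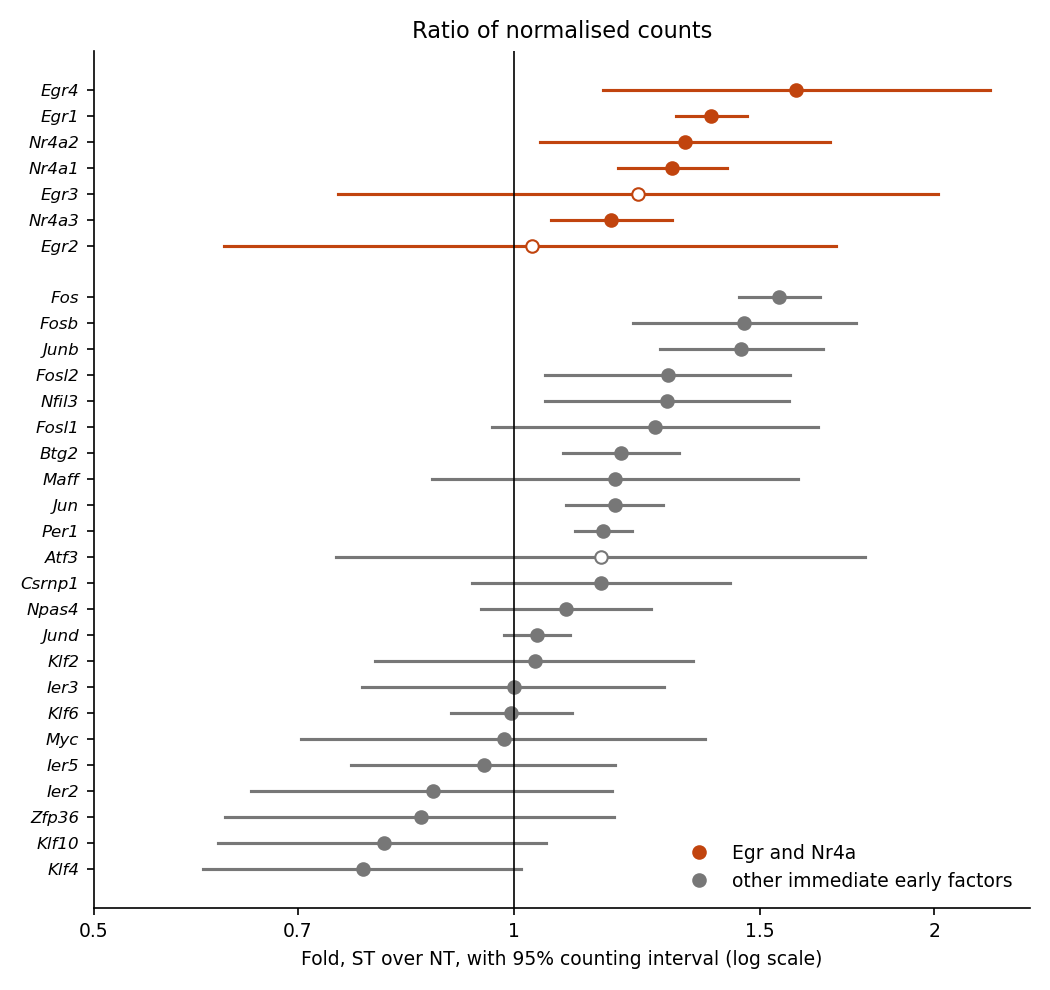
Fold of ST over NT (log scale) with 95% counting intervals for the 7 Egr and Nr4a genes (orange) and 23 other immediate early genes, most of them transcription factors (grey). Points are open where the gene was below the filter. The 5 measured Egr and Nr4a intervals lie above 1, as do 8 of the grey ones, and no interval lies below 1.

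Activity-induced effector genes, which encode the proteins that act at synapses and in signalling, were all at or above equality where measured. Of 13 measured, 13 had a log2 ratio above 0, against 49.1% of measured genes, and the median was 0.17. An interval above 1 was found for 7, against 7.79% of measured genes, and below 1 for 0, against 10.2%. Gem, a small GTPase that limits calcium channels, was at 0.45 (1.12 to 1.68), Nptx2, a pentraxin of excitatory synapses, at 0.24 (0.934 to 1.504) and Cyr61, a matrix protein, at 0.23 (0.945 to 1.45). Bdnf at 0.00 and Homer1 at 0.04 had intervals that held 1. Ptgs2, the gene of this list below the filter, had 4 counts in ST and 11 in NT (0.107 to 1.55).

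Most markers of glial, vascular and meningeal cells were lower in ST. All 8 oligodendrocyte markers had an interval below 1, with summed levels of 922 RPKM in ST and 1124 RPKM in NT. All 7 endothelial and mural markers did too, with 53.0 RPKM in ST and 67.0 RPKM in NT. Of 6 microglial markers 6 were lower and 4 had an interval below 1 (65.8 RPKM in ST and 79.0 RPKM in NT), and of 6 astrocyte markers 5 had an interval below 1 (563 RPKM in ST and 615 RPKM in NT). All 5 measured meningeal markers were at least 1.5-fold lower, a size that 0.892% of measured genes reached (12.3 RPKM in ST and 21.9 RPKM in NT for the list of 6). Of 3 blood markers, 2 were measured, both sharing reads, and both had an interval below 1. The 3 summed to 60.07 RPKM in ST and 70.14 RPKM in NT. No marker of these lists was at 0 counts. In bulk tissue, fewer cells of a type and less RNA per cell cannot be told apart.

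Neuronal markers went both ways around equality. The 12 measured pan-neuronal genes had a median of 0.00, with 2192 summed RPKM in ST and 2093 RPKM in NT, with 4 intervals above 1 and 1 below. The 12 SCN markers had a median of -0.06, with 1391 RPKM in ST and 1323 RPKM in NT, 2 intervals above 1 and 4 below. Among these, Avp, which shares reads, had a log2 ratio of 0.21 and Rgs16 of 0.16, while Vip was at -0.24 and Nms, neuromedin S, at -0.25. Prok2, which also shares reads, was at -0.29 (0.632 to 1.05). Of the 7 SCN markers sharing no reads, 1 had an interval above 1 and 3 below. When the libraries were scaled by the pan-neuronal genes alone, Egr1 was at 0.46, Egr4 at 0.66, Nr4a1 at 0.37, Nr4a2 at 0.40 and Nr4a3 at 0.22 on the log2 scale, and all 5 kept an interval above 1. Markers of neighbouring hypothalamus also went both ways, with summed levels of 922.4 RPKM in ST and 768.8 RPKM in NT. Of 4 measured, 2 had an interval above 1, Trh at 0.56 (fold interval 1.39 to 1.57) and Oxt at 0.30 (1.19 to 1.27, sharing reads), and 1 below, Pomc. Npy was at -0.23 (0.606 to 1.19). Below the filter, Crh had 32 counts in ST and 15 in NT (1.42 to 5.35), while Ghrh had 19 and 49 (0.272 to 0.847). The intervals of Agrp, Hcrt and Pmch, also below the filter, held 1. The median of that list was 0.03, but -0.16 over 9 genes with a filter of 10. None of these 9 genes was at 0 counts. Of 5 measured markers of cortex, striatum and thalamus, 1 had an interval above 1, Prkcd at 0.23, and 0 below. Whether the ratios arise in SCN neurons or in other cells of the sample was not tested.

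**Figure D5:**
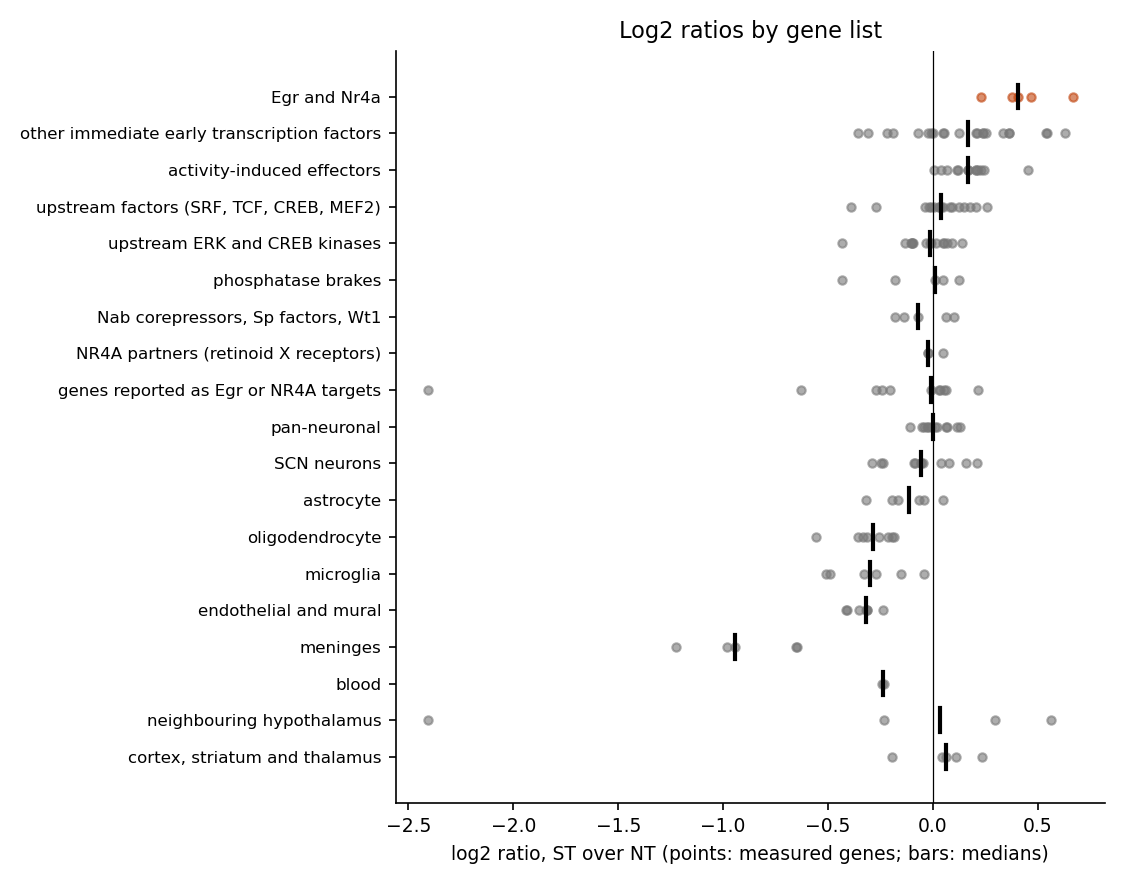
Log2 ratio of ST over NT of every measured gene (points) in the gene lists, with the list median as a bar. The Egr and Nr4a median is 0.40, and the other immediate early factors and effectors have medians of 0.16 and 0.17. The pan-neuronal, SCN and neighbouring hypothalamic medians are 0.00, -0.06 and 0.03. The astrocyte and blood medians are -0.12 and -0.24, and those of the oligodendrocyte, microglial, endothelial and meningeal lists also lie below 0.

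Genes with levels like those of Egr1 were searched among measured genes outside all the gene lists. The nearest there were AC127270.1 (38.6 RPKM in ST and 30.3 RPKM in NT), RP23-169M24.1 (35.4 and 29.8 RPKM) and Gm561 (34.6 and 29.3 RPKM). Likeness was the distance on the log2 RPKM plane of both libraries, 0.11, 0.173 and 0.193 for these genes, and with 2 libraries it says only that the levels are close. The first 2 of these share reads with other features. Listed genes were left out of the search, among them Fos at 42.71 RPKM in ST and 27.35 RPKM in NT. By the same distance Fos lay nearer to Egr1 than RP23-169M24.1 and Gm561, but not nearer than AC127270.1.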

How the data were processed

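RNA labelled as polyadenylated, from SCN tissue, was sequenced in 1 ST and 1 NT library. CASAVA 1.8.2, TopHat 1.2, DESeq and mm9 are named in the submitters' processing notes without role or order, and neither counter nor strand setting is stated there. The authors deposited estimated counts, RPKM and RPM, per the file headers, with a fold change, its log2 value and p-values for ST over NT. Counts were fractional in 42.4% of genes in ST and 43.1% in NT (tolerance 1e-06). Another 3 columns of means were not used. Chromosome and strand codes were read through GENCODE vM1.

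Counts were rounded and scaled by median-of-ratios. Log2 ratios carry a pseudocount of 0.5, folds none. Alternatives were total-count, TMM (edgeR 4.0.16) and pan-neuronal scaling, filters of 10, 200 and none, a pseudocount of 5, unrounded counts, RPKM plus 0.01, fold rules of 1.2 and 2, exon lengths from the annotation and, chosen after seeing the data, genes sharing no reads. The text names the 7 genes and up to 4 genes per list by size of the log2 ratio (6 for immediate early factors). Further genes of the lists are named outside this rule and were chosen after their values were seen: Srf, Mkl2, Ep300, Rgs16, Npas4, Per1, Jun, Nab2, Wt1, Cdk5r1, Ddc, Ret, Bdnf, Homer1, Ptgs2, Zfp36, Ier2, Klf10, Crh, Ghrh, Agrp, Hcrt, Pmch and Six6. The members and lists were chosen with earlier results of these data known. Interval code was tested on simulated data. Protein sequences were not analysed here. Python 3.11.15 and scipy 1.17.1 were used.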

Additional observations from a re-analysis of the deposited data

How the results depend on the processing

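No paired analysis was possible because there was 1 ST and 1 NT library, which also leaves no replicate to omit. All 7 log2 ratios stayed within their counting intervals under every alternative that could be computed, and the 5 measured genes kept an interval above 1 under total-count, TMM and pan-neuronal scaling, against 9.91%, 7.81% and 6.48% of measured genes. These scalings moved every log2 ratio by 0.0122, 0.000135 and -0.00872. With a filter of 200, 3 members were measured, all 3 with an interval above 1, against 8.99% of genes, and 0 were at least 1.5-fold higher in ST, because Egr4 and Nr4a2 leave by construction. Over all measured genes, 1118 had an interval above 1 and 1467 below it, so 43.2% of such genes were higher in ST. That share was 53.2% with total-count scaling and 35.9% with pan-neuronal scaling. Among genes sharing no reads, a setting chosen after the data had been seen, 615 had an interval above 1 and 917 below it, by construction of the smaller set, so 40.1% of such genes were higher; all 5 measured members stayed above 1, against 7.46% of genes in that set. The number of genes higher in ST by the fold rule was 45 at 1.5-fold, 484 at 1.2-fold and 3 at 2-fold, and 128 genes were at least 1.5-fold lower. The order of the members' levels was the same with exon lengths from the annotation. Depth limits the fold of Egr2 to an interval from 0.619 to 1.70, against 1.31 to 1.47 for Egr1.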
